A study of Mus musculus with 8 samples.

Results

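The granzymes and perforin are the killing proteins of cytotoxic lymphocytes. The 10 genes described here are Gzma, Gzmb, Gzmc, Gzmd, Gzme, Gzmf, Gzmg, Gzmk and Gzmm, which encode granzymes, and Prf1, which encodes perforin. They were taken by gene symbol, and all 10 have a row both among the 17495 genes measured in all sorted OT-I cells and among the 13126 rows measured in Tim-3+ Ttex cells. All 10 passed the filter on low values in both. RNA was sequenced from 8 libraries of mouse CD8+ T cells out of tumors. OT-I cells bear a T cell receptor transgene that sees a peptide of ovalbumin, and B16-OVA is a melanoma line that makes ovalbumin. B6 recipients were given naive OT-I cells of both genotypes, Zbtb32-/- and WT, 1 day ahead of the B16-OVA cells, and these were sorted from the tumors 30 days later. The 4 groups are Zbtb32 knockout and WT cells sorted as all OT-I cells, here called unsplit, and Zbtb32 knockout and WT cells of the Tim-3+ Ttex subset, with 2 libraries each. Tim-3, encoded by Havcr2, marks exhausted T cells, and Ttex is the submitters' name for this subset.

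The labels give no animal, age or pool for a library, so the p-values rest on the spread between these libraries, which may be technical. In all sorted OT-I cells limma took this spread from all genes of a similar level. A limma p-value there does not measure the gene's own spread between libraries. The labels do not say which part of Zbtb32 is deleted either. Zbtb32 RNA was 94.9 and 73.0 FPKM in the knockout libraries against 79.8 and 87.1 FPKM in the WT libraries of unsplit OT-I cells, and 6822 and 5715 normalized counts against 3976 and 3951 normalized counts in Ttex cells. The gene-level value thus was not lower in the knockout libraries and gives no check of the labels, and the groups are called KO-labelled and WT-labelled here. FPKM is a fragment count divided by transcript length and library depth. Depth, recovered from the values, was 18.6 to 21 M reads in unsplit libraries and 51.6 to 59.2 M reads in Ttex libraries.

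Perforin opens pores in the membrane of a target cell, and granzymes, which are serine proteases packed with it in secretory granules, enter through them. Granzyme B cuts after aspartate and activates caspases and Bid, whereas granzymes A and K cut after basic residues and granzyme M after methionine or leucine. Granzymes C to G are rodent relatives of granzyme B whose targets are less well known. Granzyme B and perforin stay high in the dysfunctional CD8+ T cells of tumors, while granzyme K is a known product of less differentiated effector and memory cells.

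Granzymes B to G lie close together on chromosome 14, and reads can be hard to assign among them. In GENCODE M21 on mm10 this cluster runs from Gzme at 56117626 to Gzmb at 56262260, a span of 144.6 kb, and all 6 genes lie on the minus strand. Gzma lies on chromosome 13 from 113093825 to 113100981 and Gzmk from 113171608 to 113225908, both on the minus strand. Prf1 lies on chromosome 10 from 61297833 to 61304680 and Gzmm on the same chromosome from 79689020 to 79695261, both on the plus strand. The values are sums over the exons of each gene. Coding sequences of Gzmd and Gzme were 93.3% identical, those of Gzme and Gzmg 89.5% and those of Gzmb and Gzmc 76.2%. Of all 50-base windows of the transcript, 21.9% in Gzmd, 20.6% in Gzme, 19.8% in Gzmg, 7.36% in Gzmf and 4.14% in Gzmc were also found in another gene, against 0% in Gzma, Gzmb, Gzmk, Gzmm and Prf1. At 100 bases the share was 0.23% in Gzmd, 0.25% in Gzmg and 0% in the other members. Read length and the treatment of reads that match several genes are not given in the sources used here. The split among Gzmd, Gzme and Gzmg is therefore uncertain. The longest coding run that these 3 genes share, 41 bases on chromosome 14 of the mm10 transcripts, is shown because a read inside it cannot be placed.
Gzmd, Gzme and Gzmg shared run: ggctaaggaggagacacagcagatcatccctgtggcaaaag

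The promoters of Gzmc to Gzmg are alike too, from 73.5% identity (Gzmc and Gzmf) to 93.4% (Gzmd and Gzme). They are shown because these neighbours differ in level and in response. The stretches come from the RefSeq promoters of GRCm38.p6, each 250 bases before to 50 bases after a gene's start, and RefSeq held 11 promoters for the 10 members, with 2 for Gzmm. They are written along the minus strand. Capitals mark matches to RUNX (TGTGGT) and CRE (TGACGT), searched on both strands, and the capitals of a CRE cover 2 overlapping matches on opposite strands.
Gzmc, chr14:56234658-56234765: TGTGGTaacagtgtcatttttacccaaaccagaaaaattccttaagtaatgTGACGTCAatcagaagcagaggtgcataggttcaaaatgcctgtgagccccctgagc
Gzmd, chr14:56132598-56132705: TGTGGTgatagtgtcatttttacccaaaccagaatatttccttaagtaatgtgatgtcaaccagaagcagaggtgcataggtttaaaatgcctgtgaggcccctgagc
Gzme, chr14:56120631-56120738: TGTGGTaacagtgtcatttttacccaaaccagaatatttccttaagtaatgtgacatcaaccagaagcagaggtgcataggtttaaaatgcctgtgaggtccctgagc
Gzmf, chr14:56211433-56211540: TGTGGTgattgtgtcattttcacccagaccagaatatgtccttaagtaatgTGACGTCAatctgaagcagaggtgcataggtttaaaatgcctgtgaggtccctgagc
Gzmg, chr14:56159600-56159707: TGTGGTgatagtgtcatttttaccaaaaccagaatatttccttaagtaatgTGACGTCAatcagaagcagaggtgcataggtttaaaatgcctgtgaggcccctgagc

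Whole promoters of Gzmd and Gzme were 93.4% identical and those of Gzmf and Gzmg 84.5%, while the promoter of Gzmb was 46.2% identical to that of Gzmc. The Gzmb promoter is shown in full because Gzmb carried most of the granzyme RNA, and its capitals mark RUNX, the AP-1 motif TGANTCA and a CRE read on the opposite strand.
Gzmb, chr14:56262285-56262584, minus strand: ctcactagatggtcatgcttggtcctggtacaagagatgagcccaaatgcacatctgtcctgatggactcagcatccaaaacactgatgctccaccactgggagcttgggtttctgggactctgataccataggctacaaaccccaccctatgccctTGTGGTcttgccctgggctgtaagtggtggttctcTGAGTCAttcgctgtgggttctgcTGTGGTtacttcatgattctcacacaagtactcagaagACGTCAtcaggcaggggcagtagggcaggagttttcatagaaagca

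The RUNX letters occurred in a promoter of 9 of the 10 members (all but Gzmk) and in 16.8% of 32851 promoters of the genome. CRE occurred in 5 members (Gzmb, Gzmc, Gzmf, Gzmg and Prf1) and in 7.5% of all promoters, and the ETS letters GGAAGT in 7 members and 23.8% of promoters. AP-1 was found in 1 member, Gzmb, and in 7.8% of promoters. The T-box core GGTGTGA occurred in 2 members, Gzmk and Gzmm, and in 4.0% of all promoters. STAT (TTCNNNGAA) was found in 2 members and E-box (CANNTG) in 9, against 8.3% and 72.3% of promoters. Gzmc to Gzmg share most of their promoter, so their matches are copies and not separate cases. A match is a run of letters and was not tested for binding.

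**Figure D1:**
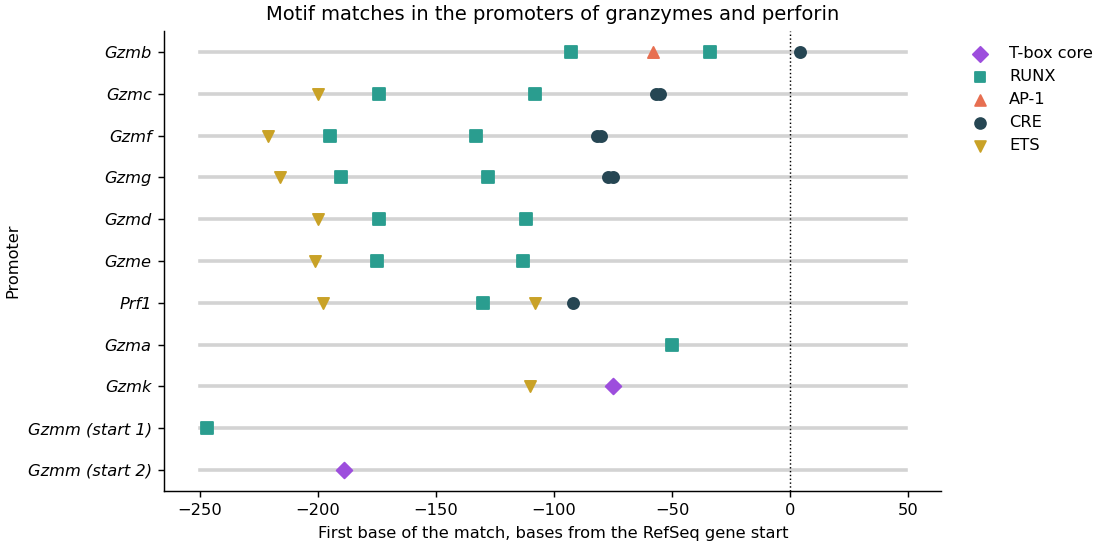
Positions of motif matches in the 11 RefSeq promoters of the 10 members, with the first base of each match on the x axis in bases from the gene start and 1 grey line per promoter on the y axis. Gzmc, Gzmf and Gzmg have a CRE match ahead of the start, Gzmd and Gzme have none, and all 5 have RUNX matches in similar places.

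The level of each gene was first compared across genes, which needs values per length. Recovered reads were therefore divided by exon length and scaled to the same sum in each library over the 11091 genes measured in both populations (TPM). Because the libraries of the 2 populations were processed and deposited separately, a TPM may be compared across genes of a library but not safely across the populations. Gzmb led in every library. In all sorted OT-I cells Gzmb averaged 4471 ± 5.12 TPM in KO-labelled and 4875 ± 12.3 TPM in WT-labelled libraries (SD, n = 2 each), rank 14 and rank 15 of all genes. Prf1 came next at 3273 ± 78.0 TPM in KO-labelled and 2316 ± 488 TPM in WT-labelled libraries. Gzmc followed at 745 ± 24.6 TPM in KO-labelled and 1165 ± 54.5 TPM in WT-labelled libraries, and then Gzmf at 356 ± 56.3 TPM in KO-labelled and 332 ± 27.6 TPM in WT-labelled libraries. Below it, Gzmd, Gzme and Gzmk lay between 145 and 267 TPM. Gzme and Gzmk overlapped in KO-labelled libraries and Gzmk and Gzmd overlapped in WT-labelled libraries, so the order of these neighbours is not resolved there. Gzma and Gzmg took the next places in swapped order, with Gzmg at 71.1 ± 3.81 TPM above Gzma at 49.5 ± 6.32 TPM in KO-labelled libraries, but at 33.4 ± 0.326 TPM below Gzma at 84.1 ± 9.16 TPM in WT-labelled libraries. Gzmm was last, at 6.46 ± 0.939 TPM in KO-labelled and 5.46 ± 0.368 TPM in WT-labelled libraries.

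Ttex cells kept Gzmb and Prf1 on top, with another gene next. Gzmb averaged 2365 ± 53.4 TPM in KO-labelled and 3117 ± 108 TPM in WT-labelled Ttex libraries, and Prf1 868 ± 17.9 TPM in KO-labelled and 1039 ± 53.9 TPM in WT-labelled ones. Gzmk followed at 305 ± 2.16 TPM in KO-labelled and 357 ± 19.95 TPM in WT-labelled libraries. It stood ahead of Gzmc, at 222 ± 94.7 TPM in KO-labelled and 181 ± 40.3 TPM in WT-labelled libraries. Gzma came after Gzmc, at 122 ± 23.0 TPM in KO-labelled and 85.3 ± 22.4 TPM in WT-labelled libraries. Gzmf, Gzme and Gzmd then lay between 18.2 and 40.9 TPM. Gzmf, Gzme and Gzmd overlapped each with the next in KO-labelled Ttex libraries, as did Gzme and Gzmd in WT-labelled ones. Gzmm averaged 12.4 ± 2.91 TPM in KO-labelled and 4.83 ± 0.358 TPM in WT-labelled libraries, and Gzmg was lowest at 4.98 ± 0.251 TPM in KO-labelled and 2.86 ± 1.04 TPM in WT-labelled libraries. Havcr2, the gene of Tim-3, was read on the same scale. It was 186 and 213 TPM in KO-labelled and 307 and 353 TPM in WT-labelled Ttex libraries. These values are below the 602 and 613 TPM of KO-labelled and the 422 and 533 TPM of WT-labelled unsplit libraries. Because TPM is not safely compared across the populations, the values show no enrichment of Tim-3 RNA but do not check the label of the subset. Cd3e was at 325 to 1115 TPM and Cd8a at 891 to 1255 TPM over the 8 libraries, and Cd4 was at most 5.15 TPM.

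**Figure D2:**
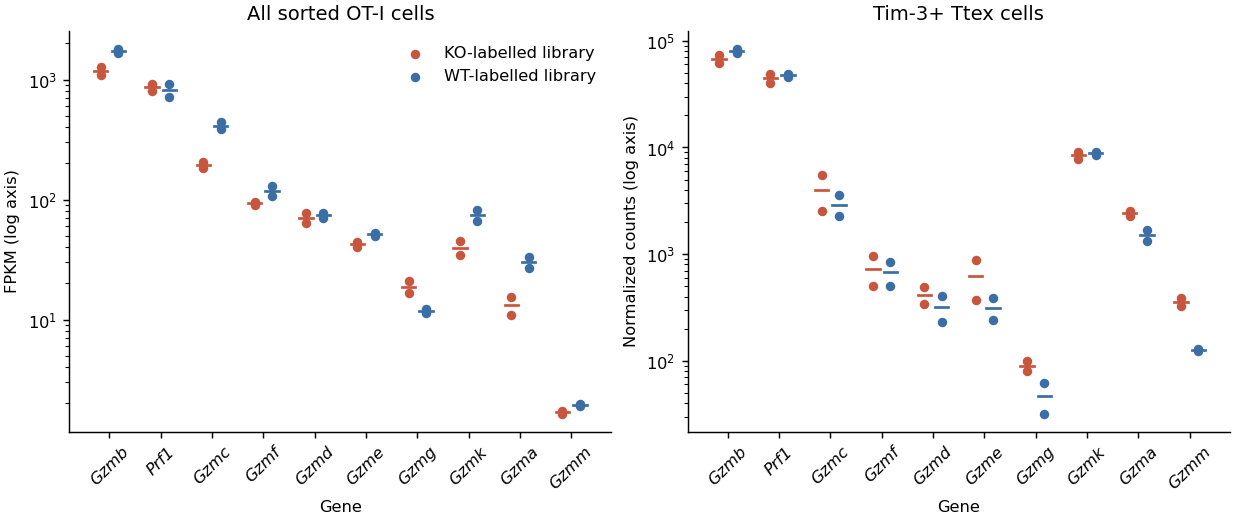
Deposited value of each gene in each library on a log axis, in FPKM for all sorted OT-I cells (left) and in normalized counts for Tim-3+ Ttex cells (right). Points are libraries, short lines are means of 2 libraries, and KO-labelled libraries stand left of WT-labelled ones; Gzma, Gzmc and Gzmk sit lower in KO-labelled libraries on the left, and Gzma and Gzmm sit higher on the right without passing the test.

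The first comparison sets KO-labelled against WT-labelled libraries in all tumor OT-I cells, and by the labels it asks how Zbtb32 knockout bears on these genes. In FPKM, Gzma, Gzmc and Gzmk fell to about 0.44 to 0.53 of the WT-labelled mean and Gzmg rose to 1.58 of it. Gzmb, Prf1 and the remaining 4 did not pass the test. Thus 1 of the 10 members was higher and 3 were lower, where 2.45% of the 9574 tested genes were called higher and 30.4% lower (32.8% in either direction). At this scaling the 3 lower calls of 10 are near the background share. The median log2 fold change was -0.31 over the 10 members and -0.24 over all tested genes. Tests were limma on log2(FPKM + 1), KO-labelled over WT-labelled, two-sided, with a Benjamini-Hochberg adjusted p under 0.05 as a call, and log2 fold changes on that scale understate the change of low genes. Because the median gene was itself at -0.24, other scalings were tried. Centring on the median, the upper quartile and an equal TPM sum left the calls of these 4 genes in place with the same direction. The background changed more. After centring 11.9% of all tested genes were lower and 10.7% higher. With an equal TPM sum 498 of the 9574 genes were lower and 636 higher. How the members stand against the background therefore depends on the scaling.

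Prf1, the pore former, was 914 and 806 FPKM in KO-labelled libraries against 720 and 916 FPKM in WT-labelled libraries. The groups overlap, and the WT-labelled libraries span more than the KO-labelled ones. Its log2 fold change came to 0.08 (SE 0.24, limma adjusted p = 0.825). With an equal TPM sum it was 0.50 (adjusted p = 0.0551, between 0.0551 and 0.982 over 17 alternatives), so its direction was not resolved.

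Gzmb, the main granzyme, was 1271 and 1082 FPKM in KO-labelled libraries against 1783 and 1675 FPKM in WT-labelled libraries. Both KO-labelled libraries lay below both WT-labelled ones, yet the change did not pass (log2 fold change -0.56, SE 0.24, limma adjusted p = 0.0524). Scaling decides its size, since it was -0.31 after centring on the median and -0.14 with an equal TPM sum. It was called lower in 8 of 17 alternatives, with adjusted p from 3.40e-08 to 0.550. Markers of CD8+ T cells, whose summed level was 1357 to 1598 FPKM in KO-labelled and 1972 to 2219 FPKM in WT-labelled libraries, were lower in FPKM, with 3 of 6 tested markers called lower and 0 higher. After centring on the median 1 of the 6 was called lower and 0 had a positive value. In TPM Cd8a was 1255 and 1253 in KO-labelled against 1145 and 1163 in WT-labelled libraries, so the direction of Cd8a depends on the scaling. Cd3d and Cd8b1 stayed lower in KO-labelled libraries in TPM. Cd3d was 1168 and 1061.5 against 1287 and 1181 TPM, and Cd8b1 was 1592 and 1604 against 1710 and 1618 TPM. The Cd3e groups overlapped in TPM. The part of CD8+ T cell RNA in the Gzmb value was not tested.

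Gzma and Gzmk, which encode the granzymes that cut after basic residues, were both lower. Gzma was 15.3 and 10.9 FPKM in KO-labelled libraries against 33.1 and 26.7 FPKM in WT-labelled libraries, from 255 to 643 reads. The groups do not overlap, and its log2 fold change of -1.14 (SE 0.20, limma adjusted p = 2.62e-07) was called in all 17 alternatives, with adjusted p from 1.62e-08 to 0.0289. For Gzmk, KO-labelled libraries had 44.9 and 34.3 FPKM and WT-labelled libraries 82.5 and 66.6 FPKM. Its groups do not overlap either (log2 fold change -0.90, SE 0.22, limma adjusted p = 0.000334). The Gzmk call was lost without WT-labelled replicate 1 (-0.75, adjusted p = 0.11).

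Gzmc, the neighbour of Gzmb, was 207 and 185 FPKM in KO-labelled libraries against 439 and 388 FPKM in WT-labelled libraries. The groups are far apart relative to their spread (log2 fold change -1.08, SE 0.23, limma adjusted p = 5.21e-05), although the call was lost without WT-labelled replicate 1 (-0.99, adjusted p = 0.0929). Gzmg, near-identical in part to Gzmd and Gzme, went the other way with 20.96 and 16.6 FPKM in KO-labelled libraries against 12.3 and 11.4 FPKM in WT-labelled libraries, and its groups do not overlap. Its log2 fold change came to 0.61 (SE 0.19, limma adjusted p = 0.00784), while edgeR on recovered reads gave an adjusted p of 0.00717 (0.000225 to 0.125 over 17 alternatives). It rests on 208 to 409 reads, and the call was lost without KO-labelled replicate 1 (0.45), WT-labelled replicate 1 (0.66) or WT-labelled replicate 2 (0.56).

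The other members of the chromosome 14 cluster moved little. Gzmd was 76.9 and 63.9 FPKM in KO-labelled libraries against 77.7 and 70.7 FPKM in WT-labelled libraries, with overlapping groups (log2 fold change -0.08, SE 0.22). Gzme was 44.6 and 40.0 FPKM in KO-labelled libraries against 52.8 and 49.7 FPKM in WT-labelled libraries (-0.27, SE 0.22). Gzmf was 89.8 and 95.8 FPKM in KO-labelled libraries against 129 and 108 FPKM in WT-labelled libraries (-0.34, SE 0.23). None of these 3 was called, with adjusted p from 0.252 to 0.817, and with an equal TPM sum all 3 had positive values. The genes with a CRE match, Gzmc, Gzmf and Gzmg, had log2 fold changes of -1.08, -0.34 and 0.61, and those without, Gzmd and Gzme, -0.08 and -0.27. Gzmm, the gene of granzyme M, was 1.65 and 1.72 FPKM in KO-labelled libraries against 1.90 and 1.97 FPKM in WT-labelled libraries, from 52 to 59 reads. It was not called (log2 fold change -0.13, SE 0.15, limma adjusted p = 0.538), and after centring its value was 0.12.

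**Figure D3:**
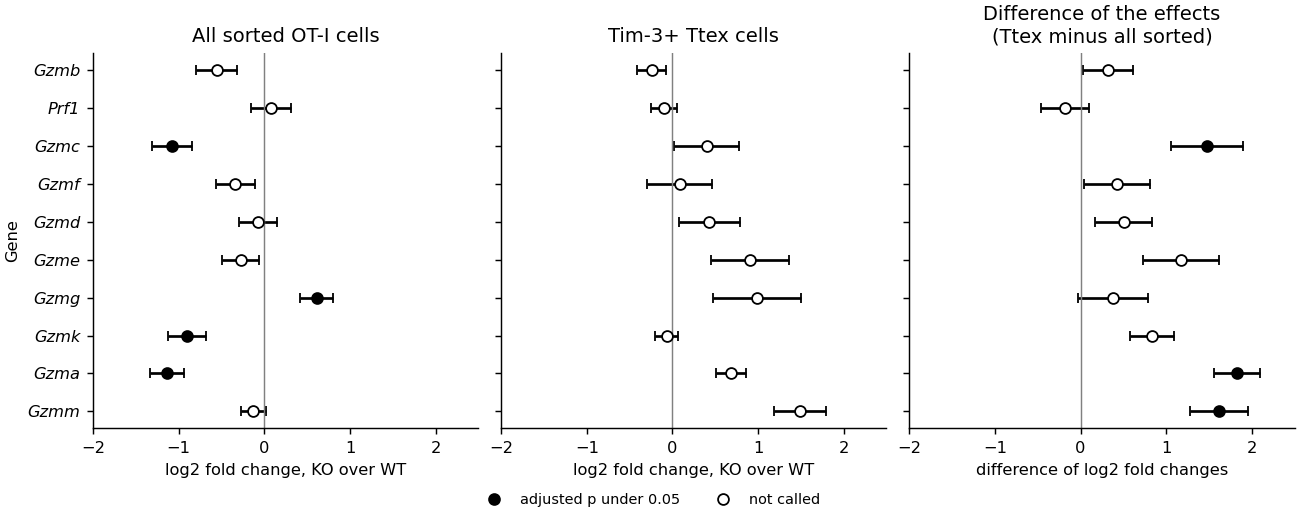
Log2 fold change of each gene, KO-labelled over WT-labelled, in all sorted OT-I cells (left) and Tim-3+ Ttex cells (middle), and the difference of these effects, Ttex minus all sorted (right), with bars of 1 SE from limma and filled points for an adjusted p under 0.05. Gzma, Gzmc and Gzmk lie left of 0 and Gzmg right of 0 as calls in the left panel, no point is filled in the middle, and Gzma, Gzmc and Gzmm are filled in the right panel.

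The second comparison repeats the question within Tim-3+ Ttex cells. None of the 10 members passed the test there, where limma called 3 of 12559 genes (0.0239%) and 1789 had an unadjusted p under 0.05. Log2 fold changes were positive for 7 of the 10 members, with a median of 0.41 against -0.06 over all tested genes. The positive ones include the related neighbours Gzmc to Gzmg, of which Gzmd, Gzme and Gzmg are near-identical in part. The abundant Gzmb, Prf1 and Gzmk were negative. The summed TPM of the 9 granzymes was 3238 and 3015 in KO-labelled against 3764 and 3890 in WT-labelled Ttex libraries, so the total did not rise. By limma 2 members, Gzma and Gzmm, had an unadjusted p under 0.05. On recovered reads, edgeR called none of the members (0.127% of all genes) and DESeq2 called 2, Gzma and Gzmm (3.11% of all genes). Apart from that TPM sum, values are deposited normalized counts, which cannot be compared between genes of unequal length.

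Gzma was 2278 and 2558 normalized counts in KO-labelled Ttex libraries against 1329 and 1691 normalized counts in WT-labelled libraries. The groups do not overlap and KO-labelled libraries are higher, with a log2 fold change of 0.69 (SE 0.17, limma adjusted p = 0.245). DESeq2 on recovered reads gave 0.72 with an adjusted p of 0.0248, within a range of 0.0216 to 0.851 over 16 alternatives. Gzmm was 325 and 391 normalized counts in KO-labelled Ttex libraries against 128 and 124 normalized counts in WT-labelled libraries. At 1.49 (SE 0.30) it had the largest log2 fold change of the 10 in Ttex cells, with a limma adjusted p of 0.182. DESeq2 called it at an adjusted p of 0.0019, within 0.0019 to 0.9996 over 16 alternatives.

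Gzmb and Prf1, the most abundant members, were not called, and the size of their values depended on the scaling. With an equal TPM sum their log2 fold changes were -0.44 and -0.30, and after centring on the median -0.16 and -0.02. Limma adjusted p ran from 0.316 to 0.963 over these. Gzmb was 73698 and 61346 normalized counts in KO-labelled Ttex libraries against 82991 and 76182 normalized counts in WT-labelled libraries. Its groups do not overlap, with a log2 fold change of -0.24 (SE 0.17, limma adjusted p = 0.528). Prf1 was 48610 and 40576 normalized counts in KO-labelled Ttex libraries against 49142 and 46216 normalized counts in WT-labelled libraries, with overlapping groups (-0.10, SE 0.15). Gzmk was 9108 and 7749 normalized counts in KO-labelled Ttex libraries against 9058 and 8567 normalized counts in WT-labelled libraries (-0.07, SE 0.13), also overlapping.

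The library numbered 1 was above the library numbered 2 in both genotypes for 8 of the 10 members in Ttex cells. The same held for 7 of the 10 in unsplit OT-I cells. The share of all genes with this order was not computed, so the counts cannot be read as a trait of the members. Gzmc to Gzmg are related neighbours and not separate cases. Gzmk (1.18-fold and 1.06-fold) and Prf1 (1.2-fold and 1.06-fold), on other chromosomes, were among the 8. The gaps were wider for Gzmc to Gzmg of the chromosome 14 cluster. Gzmc was 5515 and 2542 normalized counts in KO-labelled Ttex libraries against 3562 and 2267 normalized counts in WT-labelled libraries. Gzme was 888 and 371 normalized counts in KO-labelled Ttex libraries against 386 and 243 normalized counts in WT-labelled libraries. In both genotypes the library numbered 1 is the higher, by 2.17-fold and 1.57-fold for Gzmc and by 2.4-fold and 1.59-fold for Gzme. Gzmd had 491 and 344 normalized counts in KO-labelled and 401 and 233 normalized counts in WT-labelled libraries, and Gzmf 954 and 508 normalized counts in KO-labelled and 849 and 506 normalized counts in WT-labelled libraries, in the same order of numbers. Gzmg was 100.2 and 80.2 normalized counts in KO-labelled Ttex libraries against 62.2 and 32.0 normalized counts in WT-labelled libraries, from 34 to 93 reads, and its groups alone among these 5 do not overlap. Log2 fold changes were 0.40 (SE 0.38) for Gzmc, 0.43 (SE 0.36) for Gzmd, 0.90 (SE 0.46) for Gzme, 0.09 (SE 0.38) for Gzmf and 0.99 (SE 0.51) for Gzmg, with limma adjusted p from 0.410 to 0.932. The genotypes thus overlapped for 4 of these 5 genes. For Gzmg the WT-labelled libraries differed 1.94-fold, about as much as the genotype means (1.92-fold).

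A last comparison asks whether the genotype effect differs between the populations, and it was fitted over all 8 libraries as the effect in Ttex cells minus that in all sorted OT-I cells. Gzma, Gzmc and Gzmm differed upward, and no member differed downward, where 10.4% of 8962 tested genes were called upward and 0.982% downward (11.4% in either direction). Gzma had the largest difference, 1.83 on the log2 scale (SE 0.27, limma adjusted p = 0.00203). It was called in all 12 alternatives, with differences from 1.60 to 2.05. The Gzmm difference was 1.62 (SE 0.34, limma adjusted p = 0.0122). It was called in 9 of 12 alternatives and lost with edgeR on recovered reads (adjusted p = 0.0642) and without KO-labelled replicate 2 (1.64) or WT-labelled replicate 1 (1.64) of unsplit OT-I cells. The difference of Gzmc, 1.47 (SE 0.42, limma adjusted p = 0.0402), was called in 4 of 12 alternatives, with adjusted p from 5.01e-06 to 0.178. It was lost with edgeR, with centring, with a pseudocount of 5, and without any 1 of the 4 unsplit libraries or WT-labelled Ttex replicate 2, with values from 0.91 to 2.03 when a library was left out. Gzmk was just outside (0.83, SE 0.25, adjusted p = 0.0507), Gzme was at 1.18 (SE 0.44, adjusted p = 0.0979), and Gzmb (0.32, SE 0.29) and Prf1 (-0.18, SE 0.29) were not called. The median difference of all tested genes was 0.17, and after centring on the median Gzma (1.67) and Gzmm (1.47) kept their calls and Gzmc (1.32, adjusted p = 0.0897) did not.

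Shares within the granzyme RNA do not depend on how libraries are scaled. Of the summed TPM of the 9 granzymes, Gzmb made up 71.7% and 70.7% in KO-labelled and 68.3% and 69.9% in WT-labelled libraries of unsplit OT-I cells. In Ttex cells it made up 74.2% and 77.2% in KO-labelled libraries, below the 80.8% and 82.1% of WT-labelled libraries. These shares are a description with no test, and an exact permutation test on 2 against 2 libraries could not give a two-sided p under 0.333. Gzma took 0.865% and 0.713% in KO-labelled libraries against 1.27% and 1.11% in WT-labelled libraries of unsplit OT-I cells, but 3.27% and 4.59% in KO-labelled against 1.85% and 2.60% in WT-labelled Ttex libraries. The groups do not overlap in either population and their order is opposite. Gzmc took 11.7% and 12.1% in KO-labelled libraries against 16.8% and 16.2% in WT-labelled libraries of unsplit OT-I cells, whereas the Ttex groups overlap, with 8.92% and 5.14% in KO-labelled and 5.57% and 3.92% in WT-labelled libraries.

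The near-identical Gzmd, Gzme and Gzmg together took 8.04% and 7.88% in KO-labelled libraries against 5.47% and 5.50% in WT-labelled libraries of unsplit OT-I cells. The sum depends little on how reads were split among these 3 genes, whose exon lengths are 964, 916 and 909 bases. Reads dropped for matching several genes would be missing from it. These 3 genes also share short windows with Gzmc and Gzmf. They share some with Gzmn as well, a granzyme gene that is not among the 10 members. A share moves with the other granzymes too, and in deposited values the same sum was 142.4 and 120.5 FPKM in KO-labelled against 142.8 and 131.8 FPKM in WT-labelled unsplit libraries, with overlapping groups. In Ttex cells the sum was 2.30% and 1.54% in KO-labelled libraries against 1.27% and 0.839% in WT-labelled libraries. The whole block from Gzmc to Gzmg made up 24.8% and 26.2% in KO-labelled against 27.2% and 26.2% in WT-labelled unsplit libraries. In Ttex cells it made up 12.7% and 7.67% in KO-labelled against 8.13% and 5.62% in WT-labelled libraries, with overlapping groups. Gzmk held 2.53% and 2.24% in KO-labelled against 3.16% and 2.78% in WT-labelled unsplit libraries, and 9.48% and 10.1% in KO-labelled against 9.12% and 9.55% in WT-labelled Ttex libraries. Per length, Gzmb exceeded Prf1 by 1.39-fold and 1.34-fold in KO-labelled libraries against 2.48-fold and 1.83-fold in WT-labelled libraries of unsplit OT-I cells. In Ttex cells the ratio was 2.73 and 2.72 in KO-labelled libraries against 3.04 and 2.97 in WT-labelled libraries.

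**Figure D4:**
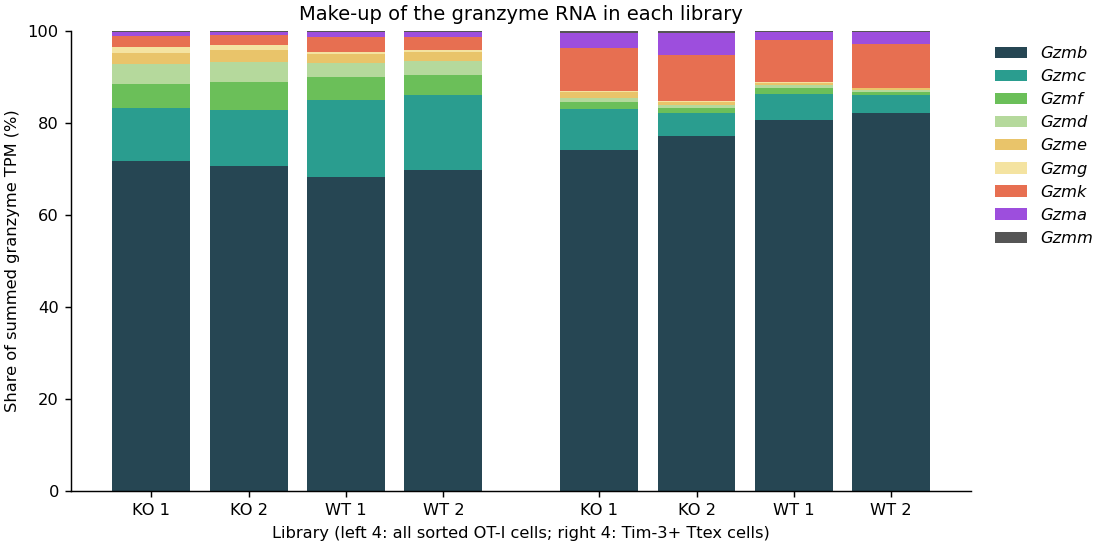
Share of each of the 9 granzymes in the summed granzyme TPM of each library, in percent, as stacked bars, with the 4 libraries of all sorted OT-I cells on the left, the 4 of Tim-3+ Ttex cells on the right, and KO-labelled before WT-labelled within each. Gzmb makes up 68.3% to 82.1% of every bar, Gzmc is the largest of the rest in all sorted OT-I cells, and Gzmk is the largest of the rest in Ttex cells.

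The machinery around the granzymes was read from lists of named genes. In all sorted OT-I cells 6 of 15 genes of granule biogenesis and granzyme activation were lower and 0 higher, beside 30.4% of all genes lower, with a median log2 fold change of -0.31 against -0.24 over all genes. Srgn, the granule proteoglycan serglycin that binds granzymes, was 200 and 172 FPKM in KO-labelled libraries against 377 and 302 FPKM in WT-labelled libraries (log2 fold change -0.86, limma adjusted p = 0.00171). Lamp1, the lysosome membrane protein that reaches the surface on degranulation, had the largest change of the list at -1.50 (SE 0.16, limma adjusted p = 5.82e-18). Its level was low, at 1.72 and 1.87 FPKM in KO-labelled against 7.21 and 6.57 FPKM in WT-labelled libraries. In Ttex cells Lamp1 was not called, with a log2 fold change of 0.11 (SE 0.12). Gnptab, whose enzyme makes the mannose 6-phosphate tag that sorts granzymes, was at -0.88 (adjusted p = 2.89e-05). Ctsc, the protease that activates granzymes, was not called, at 52.9 and 46.1 FPKM in KO-labelled and 58.2 and 60.3 FPKM in WT-labelled libraries. Of 17 tested genes of granule docking and release 3 were lower and 0 higher, namely the kinesin gene Kif5b (-0.75), the recycling endosome gene Rab11a (-0.69) and the syntaxin gene Stx4a (-0.57), and the list's median was -0.25. Of 5 other lytic ligands none was called, among them Fasl (-0.29) and Ltb (-0.37), and the median was -0.37.

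Inhibitors, targets and transcription factors are likewise read against the 30.4% of all genes called lower and the 2.45% called higher, which their counts of lower calls do not clearly exceed. Of 7 tested inhibitor genes 3 were lower and 0 higher, the serpins Serpinb6a (-0.57), Serpinb9b (-0.52) and Serpinb1a (-0.46), with a median of -0.46. Of 17 tested granzyme targets and pore-related genes 5 were lower and 0 higher, led by Mcl1 (-1.32, adjusted p = 3.71e-10), a survival protein of the Bcl-2 family, Nme1 (-0.74) and Set (-0.66), with a median of -0.36. Among 27 transcription factors that act on granzyme and perforin genes 9 were lower and 2 higher, with a median of -0.26. Cbfb, the partner subunit of RUNX proteins, was 5.997 and 6.19 FPKM in KO-labelled libraries against 20.7 and 18.3 FPKM in WT-labelled libraries (-1.53, SE 0.19, adjusted p = 3.69e-14). Id2 (-0.84) and the T-box factor gene Eomes (-0.64) were lower too, and Tcf7 (0.83) and Bach2 (0.47), which are linked to less differentiated cells, were higher. After centring on the median, higher and lower calls came to 1 and 4 in granule biogenesis, 1 and 1 in docking, 0 and 0 in inhibitors, 1 and 1 in targets and 2 and 2 in transcription factors, where 10.7% of all genes were higher and 11.9% lower (22.6% in either direction). In Ttex cells Tcf7 was the one gene called in these lists (1.96, adjusted p = 0.0471), and the medians of granule biogenesis, docking, inhibitors, targets, ligands and transcription factors were 0.05, -0.16, -0.19, -0.12, 0.11 and -0.12 against -0.06 over all genes. The genes with the highest mean normalized counts in the other lists, not ranked per length, were not called in Ttex cells. Their log2 fold changes were 0.03 for Nkg7, 0.13 for Ctsw, 0.04 for Coro1a, -0.23 for Dock2 and -0.13 for Serpina3g. They were -0.18 for Serpinb9, -0.06 for Set, -0.15 for Hmgb2, 0.11 for Ltb and -0.18 for Fasl.

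RNA of other cells moved with some of these values. Summed over 19 markers of macrophages, monocytes and dendritic cells, levels were 404 to 470 FPKM in KO-labelled against 954 to 1031 FPKM in WT-labelled libraries of unsplit OT-I cells, with 15 of 16 tested markers lower and 0 higher. In Ttex cells the same sum was 92490 to 105700 normalized counts in KO-labelled against 41590 to 45200 normalized counts in WT-labelled libraries, with 18 of 19 markers at positive values and 0 called. Gzma and the Gzma share follow this order in both populations, and the part of these cells in the Gzma result was not tested. Red blood cell markers summed to 15.4 to 22.3 FPKM in KO-labelled and 8.18 to 10.3 FPKM in WT-labelled unsplit libraries, and to 10640 to 17860 normalized counts in KO-labelled and 2138 to 3412 normalized counts in WT-labelled Ttex libraries. Melanoma markers summed to 20.7 to 22.7 FPKM in KO-labelled and 12.3 to 16.0 FPKM in WT-labelled unsplit libraries, and to 67640 to 71590 normalized counts in KO-labelled and 32590 to 34030 normalized counts in WT-labelled Ttex libraries. In these bulk libraries fewer cells of a type and less RNA per cell cannot be told apart.

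Natural killer cells are the other main source of granzymes and perforin, and their defining genes were low. Ncr1 and Klrb1c were 0.151 to 0.437 FPKM and 0.349 to 0.857 FPKM in all sorted OT-I cells. Klrb1c was 93.7 and 19.3 normalized counts in KO-labelled against 20.7 and 23.5 normalized counts in WT-labelled Ttex libraries, so KO-labelled replicate 1 stands apart. The 9 markers of this list, of which 8 and 6 were measured, summed to 64.1 to 64.6 FPKM in KO-labelled and 78.6 to 88.3 FPKM in WT-labelled unsplit libraries, and to 10250 to 12360 normalized counts in KO-labelled and 11000 to 12710 normalized counts in WT-labelled Ttex libraries. Most of that sum came from Klre1, Il18r1 and Il7r, which activated or memory CD8+ T cells can express as well. Markers of mast cells and basophils summed to at most 5.33 FPKM, and of 15 granule proteases of other lineages only Mcpt8, at 0.905 to 2.19 FPKM, reached the filter in all sorted OT-I cells.

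The genes most like the leading members over the 8 libraries were found by the root mean square difference of log2 values centred within each population, among 5724 genes. For Prf1 they were Fam169b (0.024), Sash3 (0.03) and Ubash3a (0.032), and for Gzmb Slc35b1 (0.041), Leprotl1 (0.042) and Coq7 (0.042). For Gzma they were mt-Cytb (0.146), Cd68 (0.161) and Fcgr3 (0.166), of which Cd68 and Fcgr3 are known from macrophages. The distance is not scaled by how much a gene itself varies. The larger distances of Gzma and the smaller ones of Prf1 therefore cannot be set against each other. These distances describe the same 8 libraries and share their scaling.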

How the data were processed

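Polyadenylated RNA was sequenced from 8 libraries. Per the submitters' processing notes, the tools were DESeq2, RSEM, featureCounts, Bowtie2 and Trim Galore 0.4.4 with the mm10 build, with no role or order given. Per the labels' protocols, RNA was extracted with TRIzol and sequenced by BGI. The authors deposited 1 table per population. That of all sorted (unsplit) OT-I cells names no unit, and its deposited values have the form of FPKM made by the authors. Per the file headers it also holds DESeq2 output, namely mean counts, log2 fold changes, p-values with their adjustment, and the standard error and Wald score. The deposited Ttex table holds a normalized signal, read as counts over a size factor for each library. There, 173 rows stand at exactly 1 step in all 4 libraries, so 1 may have been added to each count.

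Multiplying by GENCODE M21 exon length (OT-I) or dividing by the smallest value (Ttex) gave whole reads for 98.3% to 98.4% of values within 0.1 read and for 100% within 0.01 read. In R 4.3.3, limma 3.58.1 (limma-trend, two-sided) was fitted on log2(value + 1) over every gene whose mean reached 1 FPKM or 10 normalized counts, and p was adjusted by Benjamini-Hochberg with calls under 0.05. The prior degrees of freedom were infinite in all sorted OT-I cells. Each SE and limma p-value there thus uses the spread of genes at that level and not the gene's own. The difference between populations was fitted over 8 libraries, for genes passing both filters. On recovered reads, edgeR 4.0.16 called 4193 genes in all sorted OT-I cells and 16 in Ttex cells, and DESeq2 1.42.0 called 2949 and 384. No protein table was given, so identity was taken between coding sequences (Biopython 1.88) and not between proteins.

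The members, gene lists and tests were chosen with earlier results of these data known. The named genes are the 10 members, Zbtb32, up to 3 called genes per list, direction and population by size of change (the 2 of highest mean where none was called), and the 3 genes most like Gzma, Gzmb and Prf1 among genes averaging 5 FPKM and 50 normalized counts or more. Ctsc and the cell markers with single values were named after their values were seen, as was the equal TPM sum added as a scaling. Other alternatives covered scaling, filters, pseudocounts, limma settings, a replicate block and leaving out each library. The statistical scripts were tested on simulated data.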

Additional observations from a re-analysis of the deposited data

Results flagged for a closer look

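The Gzma genotype effect differed between the populations by 1.83 on the log2 scale (SE 0.27, limma adjusted p = 0.00203), Ttex minus all sorted OT-I cells. Both Ttex KO-labelled libraries were higher than both WT-labelled ones, and both KO-labelled libraries of unsplit OT-I cells were lower than both WT-labelled ones. The Gzmm effect differed by 1.62 (SE 0.34, limma adjusted p = 0.0122), with no overlap of the genotypes in Ttex cells. In unsplit OT-I cells Gzmm rests on 52 and 59 reads in KO-labelled against 54 and 58 reads in WT-labelled libraries. There the KO-labelled libraries were lower in FPKM, but in TPM they were higher, at 5.79 and 7.12 against 5.20 and 5.72 in WT-labelled libraries. For Gzmc the difference was 1.47 (SE 0.42, limma adjusted p = 0.0402), with overlapping genotypes in Ttex cells.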

How the results depend on the processing

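Of 449 member values recomputed under alternatives, 391 kept their direction and their side of the threshold. Genes called in all sorted OT-I cells numbered 3144, and 1674 with the upper quartile, 1626 with a filter 5 times higher, 1134 with an equal TPM sum (636 higher and 498 lower, against 235 and 2909) and 2168 after centring (1027 and 1141). Leaving out a library gave 1602 (without WT-labelled replicate 1) to 2726, and 1929 without KO-labelled replicate 2. In Ttex cells the 3 calls became 15 after centring or with the upper quartile, 0 with no filter (unadjusted p under 0.05 for 1805 genes) or without the trend (1576 genes), 17 with a higher filter, 5 with a pseudocount of 5, 9 with an equal TPM sum, 16 with edgeR and 384 with DESeq2. Leaving out a library gave 0 (without KO-labelled replicate 1 or 2, with 2306 and 3611 genes at an unadjusted p under 0.05) to 26 (without WT-labelled replicate 1) and 8 (without WT-labelled replicate 2). The 1019 calls of the difference became 577 after centring and 286 with a pseudocount of 5, and 145 to 2342 without a library, beyond 1.5-fold for all but WT-labelled replicate 2 of unsplit cells. A lone library left in a group is assumed to vary like the other groups. The cause was not tested.

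The replicate number as a block gave 3836 calls in all sorted OT-I cells, 844 in Ttex cells and 1991 for the difference. Differences between libraries 1 and 2 correlated across genes at 0.299 and 0.139, but with 2 pairs and no label that ties them the numbers were not taken as pairing. With the block Gzmb (adjusted p = 3.40e-08) was called lower in all sorted OT-I cells, Gzma (0.0216) and Gzmm (0.0381) higher in Ttex cells, and Gzme (0.00685) and Gzmk (0.00791) higher for the difference.

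Uncalled values changed sign. In all sorted OT-I cells Gzmd was 0.17 after centring, 0.17 with the upper quartile, 0.34 with an equal TPM sum and 0.013 with edgeR, Gzmm was 0.12, 0.035 (upper quartile) and 0.15 (TPM), and Gzme (0.14) and Gzmf (0.078) turned with an equal TPM sum. Leaving out a library put Gzmd there at -0.21 to 0.053 and Prf1 at -0.094 to 0.25. In Ttex cells Gzmk was 0.011 after centring and 0.0068 with the upper quartile, and Gzmf -0.11 with an equal TPM sum. Without a library Gzmc ran from -0.16 to 0.96, Gzmf from -0.37 to 0.54, Gzmk from -0.18 to 0.048 and Prf1 from -0.23 to 0.029, and the differences of Gzmf from -0.028 to 0.88 and of Gzmg from -0.091 to 0.85. The mean Gzmb share of 74.4% became 80.0% with reads not divided by length, as Gzmb has a longer transcript than most granzymes. Depth limits Gzmm in all sorted OT-I cells (52 to 59 reads) and Gzmg in Ttex cells (34 to 93 reads).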
